A study of Mus musculus with 6 samples.

Results

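Immediate early genes are transcribed within minutes of a stimulus and without new protein synthesis, and many of them are also induced while brain tissue is taken apart to release its cells. The genes described here are 35 such early response and dissociation response genes, chosen by name from this class and all found by gene symbol among the 15954 genes of the deposited table. They were measured by RNA sequencing of microglia, the resident macrophages of the brain, from 3 LACTB wild-type (WT) mice and from 3 mice with both Lactb alleles changed to an enzymatic dead (ED) version. LACTB is a mitochondrial serine protease-like enzyme, and the ED mice carry S162I, a change of its active-site serine that was introduced by conditional knock-in in ES cells from C57BL/6J. All mice were 3 months old, with sex not given in the sources used here, and the WT background strain was found in no separate statement. Brains were dissociated with enzymes in a heated device, debris was removed on a gradient and CD11b-positive cells were collected with magnetic beads. A single protocol is described for the mice. Whether WT and ED brains were handled at the same time was not given in the sources used here. There was 1 library per mouse.

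As background, signals through MAP kinases and calcium reach factors already bound at these genes, chiefly serum response factor at CArG boxes and CREB at cyclic AMP response elements (CRE). The first products are transcription factors, among them the Fos and Jun proteins that pair to form AP-1 and the zinc finger factors of the Egr and Klf families. Others shut the response down again: the DUSP phosphatases remove phosphate from MAP kinases, and the ZFP36 proteins bind AU-rich elements and speed the decay of the same short-lived transcripts. In microglia prepared by warm enzymatic digestion these transcripts are well known as a handling signature.

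Values are normalized read counts, that is, reads per gene divided by 1 size factor per library, and are given in the order replicate 1, 2 and 3 of WT and then of ED. Reads in the listed genes ranged from 23394686 to 28122336 per library. The microglial identity of the cells was checked on 10 marker genes, whose summed value lay between 988312 and 1187220 in WT and between 991419 and 1074820 in ED, and none of them stood at 0. Csf1r, the receptor for colony stimulating factor, had the highest value of them (289567, 326166 and 283283 in WT, 273414, 283839 and 286884 in ED), and Cx3cr1 was also among the 3 highest. Lactb itself, the mutated gene, stood at 1471, 1563 and 1393 in WT and at 1458, 1524 and 1491 in ED, with overlapping groups.

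The libraries differed in other respects, some within a genotype and 1, the neuron markers, along with it. ED replicate 1 stood apart by the small nuclear RNA Rn7sk (1782, against 140 to 226 in the other 5 libraries), by Gm42418, a locus that shares sequence with ribosomal RNA (186428, against 23649 to 36287), by Gm23935 (25795, against 1911 to 6293) and by Lars2 (26531, against 2400 to 7011), genes that were picked after their values were seen. Ttr, an abundant transcript of the choroid plexus, was also highest there (29256, against 8138 to 25100), as were Enpp2 (11626, against 4221 to 9821) and Cd74, a chaperone of antigen presentation (11421, against 5560 to 10190), named on the same basis. Summed neuron markers were also lowest there, at 3252, against 4186 and 4499 in the other ED libraries and 4879 to 5394 in WT, with Camk2a, Snap25 and Nefm the highest of 10 markers, and none at 0. These markers also differed with genotype: 10 of 10 had a lower fitted level in ED (median log2 fold change -0.40), 8 lay lower in every ED library than in every WT library, against 3.42% of the table, and 7 reached an unadjusted p of 0.05 in limma, against 1.82%, with 0 past the adjusted threshold. WT replicate 2 stood apart by summed endothelial markers, at 6383, against 3107 to 3985 in the other 5, with Pecam1, Flt1 and Cldn5 the highest, 7 of the 8 markers at their maximum in that library, and none at 0. The summed microglia markers were also highest in WT replicate 2, with 8 of 10 at their maximum there, against 26.2% of the table. Genes of the whole table with their highest value in WT replicate 2 had a median exonic length of 3507 bases and those with their lowest value there had one of 4810 bases. Such gaps were wider in WT replicate 1 (6687 against 3248 bases) and in ED replicate 1 (3251 against 5221 bases). Monocyte and neutrophil markers (7 of 8 listed, led by S100a9, Ccr2 and S100a8) summed to 2663 in ED replicate 3 and to between 594 and 1717 elsewhere. Summed markers of astrocytes (Slc1a3, Clu and Slc1a2 highest) were between 9445 and 10630, of oligodendrocytes (Mbp and Cnp among the highest) between 11757 and 15779, and of border macrophages (Mrc1, F13a1 and Cd163 highest) between 10655 and 14380, the highest in ED replicate 1, with WT and ED overlapping in each. The part of any of these in the early response genes was not tested, and fewer cells of a type cannot be told apart from less RNA per cell in bulk libraries.

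The promoters of 5 members are shown, 4 because they carry a CRE or a CArG box, the elements named above, and that of Fos, where the search matched a TATA box alone, because Fos is the best known gene of the class. A 300-base window, from 250 bases before to 50 bases after the annotated start, was available from RefSeq (GRCm38.p6) for 29 of the 35 members. Egr1, Egr3, Ier2, Myc, Zfp36l2 and Gem had no window and were not searched. The search covered both strands for the CRE (TGACGTCA), the AP-1 site (TGANTCA), the TATA box (TATAAA) and the CArG box. Each sequence gives the 200 bases before the start, 5′ to 3′ on the gene's strand, with the matched element in capitals. The Fos sequence lies on the plus strand at chr12:85473690-85473889, Btg2 on the minus strand at chr1:134079156-134079355, Dusp1 on the minus strand at chr17:26508473-26508672, Zfp36 on the minus strand at chr7:28379229-28379428 and Dusp5 on the plus strand at chr19:53528945-53529144.
Fos: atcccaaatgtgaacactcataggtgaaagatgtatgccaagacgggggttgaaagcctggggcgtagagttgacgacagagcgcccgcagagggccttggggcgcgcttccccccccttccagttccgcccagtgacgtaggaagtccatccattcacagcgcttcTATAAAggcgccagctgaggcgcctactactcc
Btg2: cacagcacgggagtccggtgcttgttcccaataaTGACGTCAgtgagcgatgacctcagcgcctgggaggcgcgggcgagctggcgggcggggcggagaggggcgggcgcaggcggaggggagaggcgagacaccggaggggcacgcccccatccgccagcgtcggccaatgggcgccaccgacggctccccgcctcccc
Dusp1: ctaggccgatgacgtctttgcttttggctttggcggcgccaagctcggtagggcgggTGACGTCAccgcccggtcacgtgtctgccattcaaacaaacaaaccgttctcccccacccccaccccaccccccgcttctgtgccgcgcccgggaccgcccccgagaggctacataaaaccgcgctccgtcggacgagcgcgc
Zfp36: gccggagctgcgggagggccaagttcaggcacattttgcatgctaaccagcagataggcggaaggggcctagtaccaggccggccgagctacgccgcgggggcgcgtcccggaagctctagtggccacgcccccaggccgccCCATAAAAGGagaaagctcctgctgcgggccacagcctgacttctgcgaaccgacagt
Dusp5: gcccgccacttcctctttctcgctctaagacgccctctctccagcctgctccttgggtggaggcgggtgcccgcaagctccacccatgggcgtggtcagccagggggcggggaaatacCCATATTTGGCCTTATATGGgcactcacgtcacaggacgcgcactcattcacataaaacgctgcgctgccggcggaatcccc

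In Fos the capitals mark a TATA box that begins 33 bases before the start, in Btg2 a CRE that begins 166 bases before it and in Dusp1 a CRE that begins 143 bases before it. In Zfp36 they mark a CArG box 58 bases before the start, and in Dusp5 a pair of CArG boxes placed end to end, 82 and 72 bases before it. A CRE was found in the windows of 3 of the 29 members (Btg2, Dusp1 and Maff), against 2.03% of all genes with a window. A CArG box was found in 3 (Dusp5, Egr2 and Zfp36), against 1.81% of genes, a TATA box in 6 (Btg1, Fos, Junb, Nr4a2, Sgk1 and Zfp36l1), against 15.7%, and an AP-1 site in 2 (Csrnp1 and Zfp36l1), against 8.97%. These matches describe the letters of the window alone. The search used fixed patterns, so it misses variant elements and those outside the window. A gene without a match, such as Fos for the CRE and the CArG box, may still have the element.

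The early response genes are short genes. Their median span was 5260 bases, against 20763 over the table, their median exonic length was 3189 bases, against 4117, and 12 of them had 1 or 2 exon blocks, against 14.3% of the table. Jun, Jund, Zfp36, Ier2, Ier5 and Rhob form a single exon block. Exons of all annotated transcripts of a gene were merged for this, so a single block does not show that a gene lacks introns. Most were abundant: per kilobase of exonic length, 21 of the 35 exceeded the 95th percentile of the table and 7 lay under its median. By mean normalized reads per kilobase, Rhob, a small GTPase of endosomes, led with 29255, followed by Jun with 14402, Zfp36 with 14336, Junb with 13168 and Fos with 11032. At the other end were Dusp5 with 34.6, Nr4a2 with 31.1 and Nr4a3 with 7.82. The members together took 1.83%, 2.11% and 1.60% of all signal in WT and 1.26%, 1.80% and 1.74% of it in ED. The lowest of these shares was that of ED replicate 1, and the other 2 ED shares lay inside the WT range.

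The first group comprised the AP-1 subunits and their partners. Fos, which forms AP-1 with a Jun protein and is the most used marker of recent stimulation, stood at 30763, 39617 and 18405 in WT and at 15624, 26351 and 24923 in ED. WT replicate 3 lay below both ED replicates 2 and 3, so the genotypes overlapped, and the highest WT library exceeded the lowest by 2.15-fold. Fosb, a relative of Fos whose products persist longer in stimulated cells, stood at 14738, 12619 and 12047 in WT and at 6716, 13561 and 13079 in ED. Its WT libraries lay close together and 1 library alone, ED replicate 1, was low. The ratio of Fosb to Fos per kilobase was 0.18, 0.12 and 0.25 in WT and 0.16, 0.19 and 0.20 in ED, so the balance of these subunits varied more among WT mice than among ED mice.

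Jun, the main DNA-binding partner of Fos, stood at 51567, 57566 and 42325 in WT and at 30000, 49743 and 44370 in ED. Junb, a relative that can oppose Jun, stood at 31445, 40967 and 26542 in WT and at 21580, 33338 and 27924 in ED. Both were lowest in ED replicate 1 and highest in WT replicate 2, and in both the remaining ED libraries fell between the WT values. Jund, the least inducible of the Jun proteins, stood at 14420, 18852 and 11664 in WT and at 10863, 14251 and 12132 in ED. Of the exonic bases of Jund, 52.6% are shared with the antisense gene Gm11175, and the use of strand in counting was not given in the sources used here. Atf3, a stress-induced partner of Jun, stood at 8466, 8502 and 5241 in WT and at 4167, 7525 and 6183 in ED.

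Fosl2 and Maff did not share this pattern of amounts. Fosl2, a Fos relative of later onset, stood at 681, 655 and 693 in WT and at 651, 667 and 788 in ED, and had the smallest spread of the AP-1 group. Maff, a small Maf protein that lacks an activation domain, stood at 119, 117 and 102 in WT and at 98.4, 133 and 116 in ED. Even so, all 8 genes of the AP-1 group had their lowest value in ED replicate 1, where the group's median lay 0.52 below the mean of the 6 libraries on the log2 scale. In WT replicate 2 it lay 0.37 above that mean, and in WT replicate 3 0.16 below it.

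**Figure D1:**
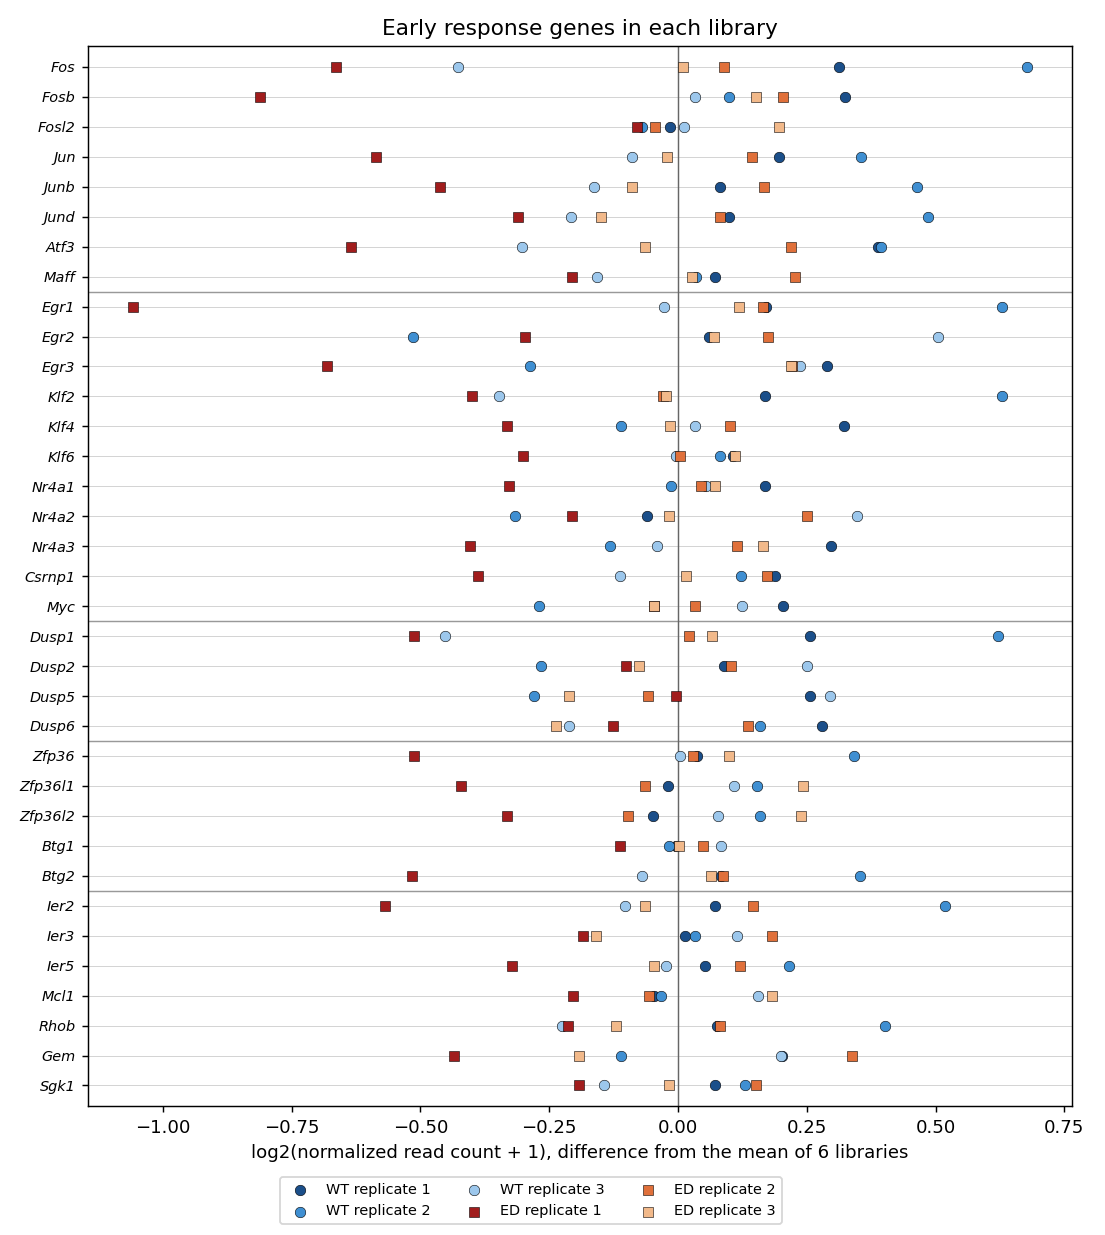
Early response genes in each library. Each row is a gene, grouped by role, each point is 1 library (circles WT, squares ED), and the horizontal axis is the difference of log2(normalized read count + 1) from the mean of the 6 libraries. The dark red squares of ED replicate 1 are leftmost in 28 of 35 rows, and ED replicates 2 and 3 both lie within the WT range in 24.

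The zinc finger and nuclear receptor factors came next. Egr1, which is induced through serum response factor and is a standard marker of neuronal and immune activation, stood at 24876, 34154 and 21693 in WT and at 10607, 24774 and 23978 in ED. Here the ED values of replicates 2 and 3 fell within the WT range and replicate 1 lay 1.20 below their mean on the log2 scale, the largest such gap of any member. Egr2, a factor with roles in myelinating and myeloid cells, stood at 1820, 1223 and 2479 in WT and at 1422, 1971 and 1834 in ED, and its lowest value was in WT replicate 2. Egr3 stood at 346, 232 and 334 in WT and at 176, 331 and 330 in ED. Within the family, the ratio of Egr2 to Egr1 per kilobase ran from 0.047 in WT replicate 2 to 0.18 in ED replicate 1, so Egr1 and Egr2 did not move as a unit across these libraries.

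Klf2, a factor that keeps myeloid and endothelial cells quiescent, stood at 6984, 9601 and 4880 in WT and at 4706, 6087 and 6112 in ED. WT replicate 3 nearly matched ED replicate 1, and WT replicate 2, the library with high endothelial and microglia markers, had the highest value. Klf4, a factor of monocyte differentiation, stood at 2751, 2037 and 2251 in WT and at 1749, 2360 and 2176 in ED. Klf6 stood at 7480, 7348 and 6920 in WT and at 5639, 6962 and 7500 in ED. ED replicate 1 was the lowest library for all 3 Klf genes.

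Of the NR4A orphan nuclear receptors, Nr4a1, which restrains inflammatory genes in macrophages, stood at 3271, 2883 and 3024 in WT and at 2319, 3004 and 3061 in ED. Nr4a2 stood at 119, 99.9 and 159 in WT and at 108, 148 and 123 in ED, and Nr4a3 at 57.0, 42.1 and 44.9 in WT and at 34.7, 50.1 and 52.0 in ED, levels at which few reads carry each value. Nr4a1 was thus by far the main receptor of the family here, with 834 normalized reads per kilobase against 31.1 and 7.82. Csrnp1, a nuclear protein, stood at 1689, 1612 and 1370 in WT and at 1132, 1670 and 1498 in ED. Its annotated span overlaps that of Cx3cr1 with no shared exonic base. Myc, the growth regulator, stood at 1201, 865 and 1136 in WT and at 1009, 1067 and 1009 in ED, with WT replicate 2 lowest. Of these 11 factors, 8 were lowest in ED replicate 1 and 3 (Egr2, Nr4a2 and Myc) in WT replicate 2.

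**Figure D2:**
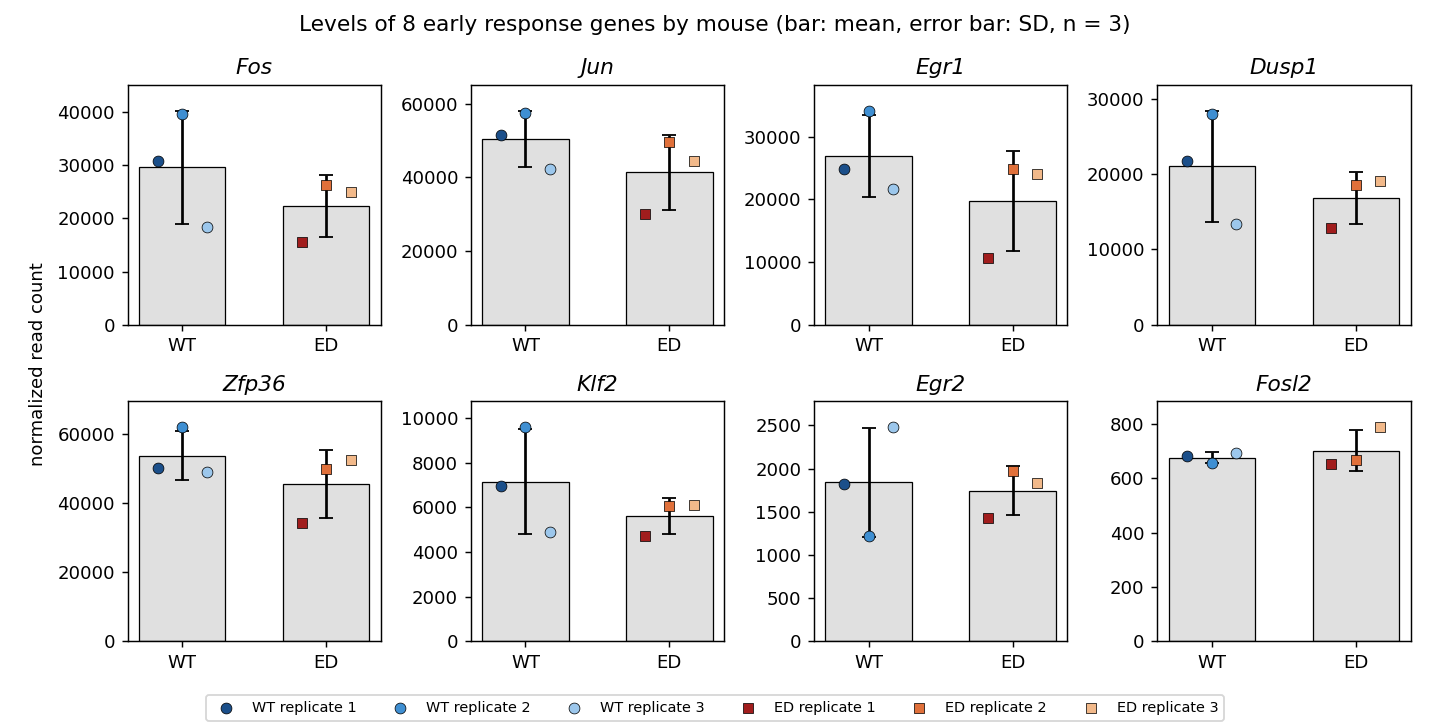
Levels of 8 early response genes by mouse. Bars give the mean of 3 mice, error bars the SD and points the single libraries, with the normalized read count on vertical axes that start at 0. Egr1 in ED replicate 1 is 10607, against 24774 and 23978 in the other ED libraries, and Fosl2 is nearly level in all 6.

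The MAP kinase phosphatases, which end the signal that induces these genes, were the group that followed ED replicate 1 least. Dusp1, a nuclear phosphatase of stress-activated MAP kinases, stood at 21757, 28004 and 13306 in WT and at 12777, 18490 and 19054 in ED. ED replicate 1 was lowest but WT replicate 3 lay close to it, and the WT libraries differed among themselves by 2.10-fold. Dusp6, a cytoplasmic phosphatase of MAP kinases, stood at 19787, 18205 and 14072 in WT and at 14922, 17897 and 13825 in ED, with ED replicate 3 lowest. Dusp2 stood at 204, 160 and 229 in WT and at 179, 206 and 182 in ED. Dusp5, a nuclear phosphatase of MAP kinases and the gene with paired CArG boxes above, stood at 101, 69.5 and 104 in WT and at 84.3, 81.1 and 72.9 in ED. It was the only member higher in ED replicate 1 than in both other ED libraries, by 0.13 on the log2 scale, and 22.1% of its exonic bases are shared with an antisense gene. Only Dusp1 of the 4 phosphatases was lowest in ED replicate 1.

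All 5 genes of mRNA decay and growth arrest were lowest in ED replicate 1. Zfp36, which encodes tristetraprolin and has the highest level per kilobase of its family, stood at 50283, 62102 and 49170 in WT and at 34375, 50046 and 52496 in ED. The low ED library lay clear of the other 5, which themselves overlapped. Zfp36l1 stood at 9559, 10774 and 10439 in WT and at 7236, 9265 and 11456 in ED. It shares 55.9% of its exonic bases with the noncoding gene Gm26669 on the opposite strand, whose own values (458, 450 and 449 in WT, 288, 361 and 565 in ED) followed the same order within ED. Zfp36l2 stood at 18077, 20889 and 19735 in WT and at 14863, 17475 and 22053 in ED. Relative to Zfp36 per kilobase, Zfp36l1 held a ratio of 0.20 to 0.25 and Zfp36l2 one of 0.33 to 0.43 across all 6 libraries, so this family kept its proportions more closely than the Fos or Egr families did. Btg2, an antiproliferative cofactor of the deadenylase complex, stood at 24852, 29982 and 22353 in WT and at 16402, 24923 and 24529 in ED. Its relative Btg1 stood at 7026, 6963 and 7459 in WT and at 6511, 7282 and 7057 in ED, the steadiest of the 35 genes with an SD within genotype of 0.07 on the log2 scale.

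Of the remaining early response genes, Ier2, a nuclear protein of the immediate early response, stood at 6975, 9499 and 6179 in WT and at 4471, 7338 and 6348 in ED. Ier5, which acts with heat shock factor, stood at 17899, 20036 and 16980 in WT and at 13793, 18763 and 16705 in ED, and Ier3, a regulator of cell survival, at 2572, 2605 and 2759 in WT and at 2242, 2891 and 2281 in ED. All 3 IER genes were lowest in ED replicate 1. Mcl1, a short-lived survival factor of the BCL2 family, stood at 12607, 12734 and 14498 in WT and at 11308, 12519 and 14781 in ED. Rhob stood at 71547, 89755 and 58102 in WT and at 58597, 71836 and 62484 in ED, and was the member of this group whose lowest value was not in ED replicate 1 but in WT replicate 3. Gem, a small GTPase that inhibits calcium channels, stood at 747, 601 and 746 in WT and at 480, 820 and 568 in ED. Sgk1, a kinase induced by serum and glucocorticoids, stood at 14696, 15307 and 12662 in WT and at 12246, 15529 and 13818 in ED.

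Across the 35 genes, then, 28 had their lowest value of the 6 in ED replicate 1, where 14.1% of the table did. Since that library was known to be low when the genes were listed, this count and the gaps and order that follow are descriptions. Within ED, replicate 1 lay below both others for 32 of 35 genes, against 34.7% of the table, and the median gap to the mean of the other 2 was -0.39 on the log2 scale, against -0.00 over all genes. After Egr1, the widest gaps were those of Fosb (-0.99), Egr3 (-0.90), Fos (-0.71), Atf3 (-0.71) and Jun (-0.65). Of the 986 genes with a mean of at least 5000 normalized reads, 21 were members. When these 986 were ordered by how far ED replicate 1 lay below the other 5 libraries, the first 11 places were all members, in the order Egr1, Fosb, Fos, Atf3, Jun, Ier2, Btg2, Zfp36, Dusp1, Junb and Zfp36l1. Members held 16 of the first 20 places, and the other 4 were Socs3 and Nfkbia, which are feedback inhibitors of cytokine and NF-κB signals, and the histone genes H3f3b and Hist1h1c.

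WT replicate 2 was high for some members and low for others. It was the highest of the 6 libraries for 13 members, against 26.2% of the table, and the lowest for 5, against 27.7%. Against the other WT libraries alone it was highest for 16 members, near the table's share of 37.9%, among them Fos, Jun, Junb, Jund, Egr1, Klf2, Dusp1 and Ier2, whose median level was 5524 normalized reads per kilobase. It was lowest of the WT libraries for 12, near the table's share of 39.3%, among them Egr2, Egr3, Nr4a1, Nr4a2, Nr4a3, Myc, Dusp2 and Dusp5, with a median level of 205 per kilobase. The members highest of all in WT replicate 2 had a median exonic length of 2352 bases, and the endothelial and microglia markers were high in that library as given above. The part of any of these in the values was not tested. Highest in WT replicate 2 and lowest in ED replicate 1 at once were 12 members, against 2.68% of the table.

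**Figure D3:**
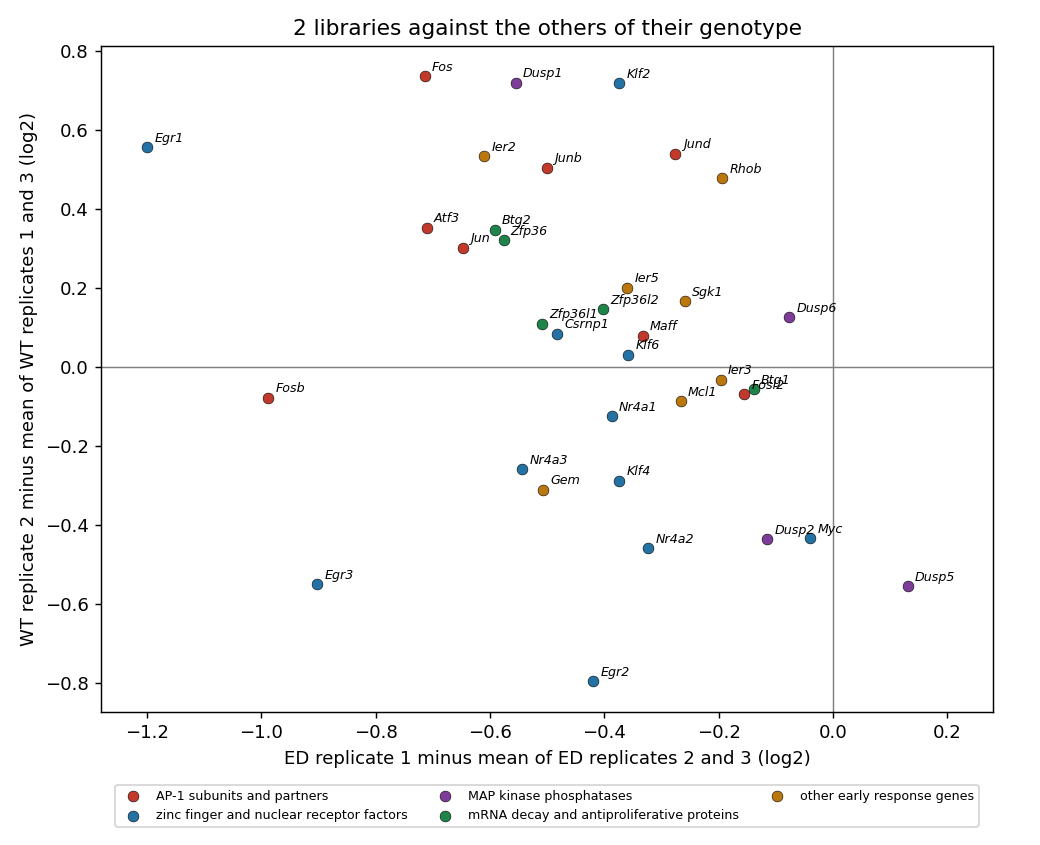
2 libraries against the others of their genotype. The horizontal axis is ED replicate 1 minus the mean of ED replicates 2 and 3, and the vertical axis is WT replicate 2 minus the mean of WT replicates 1 and 3, both on the log2 scale, with 1 point per gene coloured by role. Nearly all points lie left of 0, with Egr1 at -1.20 and Dusp5 alone to the right at 0.13, while they fall on both sides of 0 on the vertical axis.

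Spread among mice of 1 genotype is given next as a description, since it includes ED replicate 1, which supplies much of it for genes such as Fosb, whose WT libraries differed by 1.22-fold. The median SD within genotype of the members was 0.25 on the log2 scale, against 0.17 over the table, and 28 of the 35 exceeded the table's median. Over the WT libraries alone the medians were 0.22 and 0.18, and 22 of the 35 exceeded the table's. Among the 986 abundant genes, whose median SD was 0.12, Egr1 was the 6th most variable with 0.54, Fos the 7th with 0.49 and Dusp1 the 10th with 0.45, and 6 members were among the 20 most variable. The WT mice alone differed by more than 1.5-fold for 11 members, for example by 2.03-fold for Egr2 and 1.97-fold for Klf2.

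**Figure D4:**
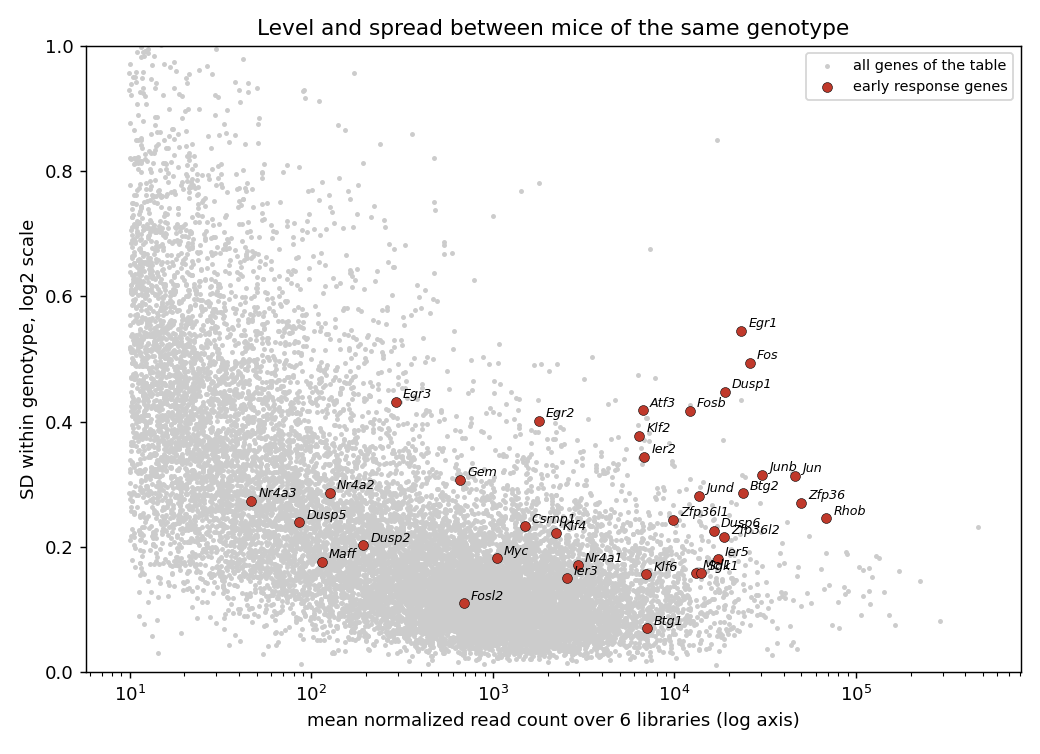
Level and spread between mice of the same genotype. Each point is a gene, with the mean normalized read count over 6 libraries on a log axis and the SD within genotype on the log2 scale (103 genes above 1 are outside the plot). Egr1, Fos and Dusp1 at 0.54, 0.49 and 0.45 stand above most genes of their level, and Btg1 at 0.07 sits near the bottom.

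The comparison of genotypes asked whether loss of LACTB activity altered the early response genes. No member passed the test between ED and WT. Of the 35, 0 passed an adjusted p of 0.05 in limma (linear model on log2(value + 1), Benjamini-Hochberg over 15954 genes), where 0% of the table passed, and 0 reached an unadjusted p of 0.05, against 290 genes or 1.82% of the table. For 0 members did all ED libraries lie below all WT libraries, against 3.42% of the table, and for 0 did they all lie above, against 2.32%. Fitted fold changes were nevertheless one-sided: 32 of the 35 were lower in ED, against 51.4% of the table. Their median log2 fold change was -0.16, against -0.00 over all genes. ED replicate 1, known to be low when the genes were listed, enters each of these fits. This count and median are therefore descriptions too, and without that library 22 members were lower and 13 higher.

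The lowest was that of Egr1, whose WT mean was 26907 ± 6474 (SD, n = 3) and whose ED mean was 19787 ± 7959 (SD, n = 3). Its log2 fold change was -0.52 (SE 0.30, 95% interval -1.19 to 0.16, limma adjusted p = 1.00). Fos stood at 29595 ± 10654 (SD, n = 3) and 22299 ± 5825 (SD, n = 3), a log2 fold change of -0.38 (SE 0.28), and Ier2 at 7551 ± 1733 (SD, n = 3) and 6052 ± 1456 (SD, n = 3), one of -0.32 (SE 0.20). For Jun it was -0.31 (SE 0.19), for Atf3 -0.32 (SE 0.23), for Fosb -0.30 (SE 0.23), for Klf2 -0.30 (SE 0.21) and for Dusp1 -0.28 (SE 0.25). The 3 members with a higher fitted level in ED were Fosl2 (0.05), Maff (0.03) and Nr4a2 (0.02). All 35 intervals included 0, with bounds from -1.19 to 0.48, and for 16 of them the interval reached past a 1.5-fold decrease, a size that these 6 libraries could not exclude.

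By role, the median log2 fold change was -0.28 for the 8 AP-1 genes, -0.13 for the 11 zinc finger and nuclear receptor factors, -0.17 for the 4 phosphatases, -0.16 for the 5 decay and antiproliferative genes and -0.16 for the other 7. Without ED replicate 1, the members' median was -0.03, 22 were lower and 13 higher in ED, and Egr1 stood at -0.12, Fos at -0.14, Ier2 at -0.12 and Fosb at 0.03. Without both ED replicate 1 and WT replicate 2, a setting chosen after seeing the data, the median was 0.02 with 13 lower and 22 higher. When WT replicate 3 was left out instead, 7 members reached an unadjusted p of 0.05 in limma, as did 912 genes or 5.72% of the table. The smallest adjusted p of a member was then 0.860. Without ED replicate 2, 3 members reached it, against 1.35% of the table, and without ED replicate 3, 2 members did, against 2.38%. Both of these fits keep ED replicate 1. With any other single library left out, 0 members reached it.

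**Figure D5:**
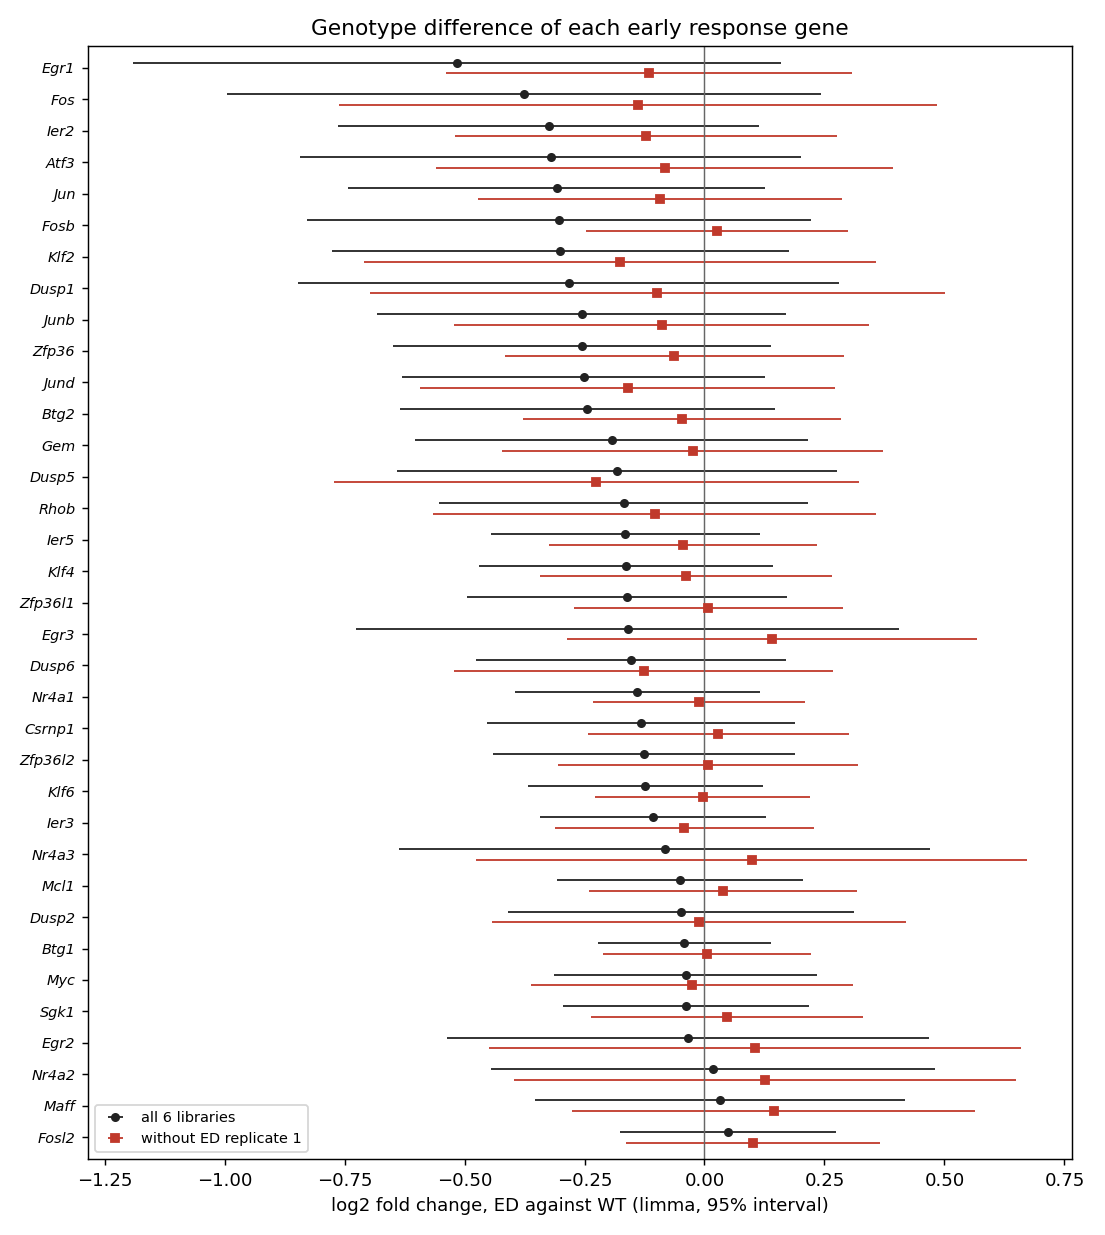
Genotype difference of each early response gene. Points give the log2 fold change of ED against WT from limma and lines its 95% interval, with all 6 libraries (black circles) and without ED replicate 1 (red squares). All black intervals cross 0, and the red points gather nearer to 0, with a median of -0.03 against -0.16.

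Genes that act before or beside this class did not pass the test either. Of 13 genes for serum response factor, its cofactors and related activators, 10 were lower and 3 higher in ED and 0 passed (median log2 fold change -0.03), and 6 were lowest in ED replicate 1. Srf itself stood at 1915, 1891 and 1828 in WT and at 1752, 1723 and 1879 in ED. The smallest p in each direction belonged to Srf and its cofactor Mkl2 among the lower genes and to the ETS factors Elk1 and Elk4 among the higher ones. Of 20 genes of the MAP kinase cascade, 12 were lower, 8 higher and 0 passed (median -0.02), and 2 were lowest in ED replicate 1. Rps6ka3 among the lower genes and Mapkapk3 among the higher ones were of those with the smallest p.

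Of the other primary response genes, 37 of 39 listed were measured. In ED 27 were lower and 10 higher with 0 past the threshold (median -0.06), and 13 were lowest in ED replicate 1. Bhlhe40, a repressor of the circadian clock and of cytokine genes, was the 1 of the 37 with all ED libraries below all WT libraries, where 3.42% of the table had this, at 285, 344 and 253 in WT and 236, 224 and 234 in ED (limma adjusted p = 1.00). Id3, an inhibitor of basic helix-loop-helix factors, followed with a log2 fold change of -0.48, and the smallest p among the higher genes were those of Fosl1 (0.37) and Pim1 (0.06).

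Genes of the microglial ex vivo response that are not members divided evenly, with 6 of 12 lower and 6 higher in ED, 0 past the threshold and a median log2 fold change of -0.00. Nfkbiz, an atypical inhibitor in the NF-κB pathway, was lowest in ED replicate 1 (4645, 3656 and 4234 in WT, 2703, 4494 and 4387 in ED), as 28 of the 35 members were. Hist1h1c was lower in ED by a log2 fold change of -0.22. The heat shock gene Hspa1a, also a sign of handling, stood at 1036, 899 and 1623 in WT and at 1440, 1090 and 1980 in ED, so ED replicate 1 was not the lowest library for it. Rgs1, a regulator of G protein signals, was highest in ED replicate 1, at 2616 against 1668 to 2215 in the other libraries (log2 fold change 0.27, limma adjusted p = 1.00). The chemokine genes Ccl3 and Ccl4 in ED replicate 1, at 3732 and 1544, lay within the range of the other 5 libraries. Of the lists, the members had 28 of 35 genes at their lowest in ED replicate 1, the neuron markers 7 of 10, the serum response factor list 6 of 13, the other primary response genes 13 of 37, the ex vivo genes 3 of 12 and the MAP kinase cascade 2 of 20.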

How the data were processed

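Polyadenylated RNA of CD11b-selected microglia was sequenced with paired ends, 1 library per mouse. The submitters' processing notes name DESeq2 (version not stated), Subread 1.5.2 with featureCounts, STAR 2.5.2b, Trimmomatic 0.36 and build GRCm38, while the study's methods name a human build for its RNA-seq. Use of strand in counting was not given in the sources used here. The signal values deposited by the authors are read counts scaled by a single size factor for each library: 100% of the values were whole multiples of 1 step per library (tolerance 0.01 of a step). In the ED libraries no gene stood at 1 read, so the size of a read there was inferred from the spacing and no count model was fitted. The table holds no gene with a mean under 9.87. The log2 fold change, p-value and adjusted p-value columns deposited by the authors are from their own comparison and were not used.

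For each gene, ED was set against WT in limma 3.58.1 (R 4.3.3) on log2(value + 1) over all 15954 genes (mean-variance trend, robust estimation off, genotype only), with Benjamini-Hochberg adjustment at 0.05. Fold changes are on that scale and understate those of weakly expressed genes. With 3 mice against 3, each p-value sets the genotype difference against the spread between mice, with each gene's variance drawn toward the trend over all genes. The pipeline was tested on simulated data with the same dispersion for all genes, which does not show what it detects in genes as variable as Egr1 and Fos. Exonic length is the union of exons in GENCODE M21, to which 15917 identifiers matched. For Dusp1, whose annotated gene starts 53656 bases from the RefSeq start, that union holds distant exons and lowers the level per kilobase. For Zfp36, whose annotated gene starts 1025 bases from the RefSeq start, the union includes that stretch, with the same effect. Orders and ratios per kilobase between genes depend on these lengths. Alternatives were other pseudocounts (0.5 and 5), a minimum mean of 50, no trend, upper-quartile rescaling, a replicate block, library quality weights and leaving out each library. The members, gene lists, tests and naming rule were chosen with earlier results of these data known. Named genes are all members and, of the other lists, any gene past the threshold, the 3 most abundant of each marker list and the 2 with the smallest p per direction of each early response list. Some genes that the rule takes are not reported here. Others (Rn7sk, Gm42418, Gm23935, Lars2, Ttr, Enpp2, Cd74, Hspa1a, Ccl3, Ccl4, Gm26669, H3f3b, Socs3 and Nfkbia) were named after their values were seen.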

Additional observations from a re-analysis of the deposited data

How the results depend on the processing

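The 0 called members and the negative median were kept with pseudocounts of 0.5 and 5, a minimum mean of 50 (34 members left), no trend and upper-quartile rescaling, with 0 genes of the table called in each. With library quality weights 4 genes of the table and 0 members were called, against 0 and 0 with equal weights, and 4 members turned sign: Ier3 0.034, Sgk1 0.014, Fosl2 -0.0063, Btg1 0.0011. When single libraries were left out, 0 genes and 0 members were called, the members' median log2 fold change ran from -0.25 to -0.026, and 28 to 31 members were lowest in ED replicate 1. Without both ED replicate 1 and WT replicate 2, an alternative chosen after seeing the data, the median was 0.020 and 21 members turned sign. Over these 7 fits, the log2 fold changes of the members that turned sign in at least 1 ranged for Fos -0.68 to 0.11, Fosb -0.48 to 0.025, Fosl2 -0.037 to 0.10, Jun -0.46 to 0.0081, Junb -0.40 to 0.079, Jund -0.42 to 0.020, Atf3 -0.55 to 0.034, Maff -0.073 to 0.17, Egr1 -0.73 to 0.069, Egr2 -0.30 to 0.21, Egr3 -0.34 to 0.14, Klf2 -0.55 to 0.063, Klf6 -0.21 to 0.0064, Nr4a2 -0.14 to 0.20, Nr4a3 -0.19 to 0.098, Csrnp1 -0.25 to 0.056, Myc -0.18 to 0.053, Dusp1 -0.58 to 0.14, Dusp2 -0.19 to 0.064, Zfp36 -0.37 to 0.044, Zfp36l1 -0.32 to 0.044, Zfp36l2 -0.28 to 0.056, Btg1 -0.076 to 0.0046, Btg2 -0.35 to 0.069, Ier2 -0.48 to 0.056, Ier5 -0.27 to 0.022, Mcl1 -0.16 to 0.038, Rhob -0.32 to 0.055, Sgk1 -0.12 to 0.10. The cause of these sign changes was not tested. Whether same-numbered WT and ED mice were paired was not given in the sources used here. Deviations of same-numbered libraries from their genotype means correlated at -0.10, 0.05 and 0.27. Those of differently numbered libraries correlated at -0.30 to 0.28. With 3 libraries per genotype these correlations cannot decide whether the mice were paired. With the replicate block 0 genes and 0 members were called, the members' median stayed at -0.16 and 3 members (Egr1, Ier2 and Jund) reached an unadjusted p of 0.05, against 0 without it. Depth limits the members with the lowest counts, Nr4a3, Dusp5, Maff and Nr4a2, most.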
